A study of Mus musculus with 6 samples.

Results

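Pck1, Fbp1, G6pc, Khk and Miox, 5 of the 31053 genes counted, were followed through 3 droplet libraries of mouse kidney, by library and by nephron segment. They were chosen by name as enzymes of renal gluconeogenesis, fructose use and inositol breakdown. Kidneys of a 12 week old male C57BL/6 mouse were minced and digested with type I collagenase, and single cells were recovered from a 60 min control digest, from a microfluidic digestion, dissociation and filter platform at its 15 min interval, and from the same platform at its 60 min interval. The intervals were eluted in turn from the same tissue, with collagenase renewed after the 15 min elution. The 60 min interval thus holds cells released after 15 min, whereas the control holds those of a whole 60 min digest. Dead cells were removed by sorting on SytoxBlue. Mammary tumors of 10 week old female MMTV-PyMT mice, in which the MMTV promoter drives the polyoma middle T antigen in mammary epithelium, were processed under the same 3 conditions and serve here as the other tissue. Each condition had 1 library, and the study's reporting summary states that all conditions of a replicate were run on tissue of a single animal. A difference between libraries therefore has no replicate check, and all intervals are exact 95% intervals for counting error only.

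The proximal tubule is the site of glucose synthesis in the kidney. There lactate, glutamine and other precursors pass through oxaloacetate and phosphoenolpyruvate (made by Pck1, the cytosolic phosphoenolpyruvate carboxykinase), fructose 1,6-bisphosphate (cleaved by Fbp1) and glucose 6-phosphate, which G6pc, the catalytic subunit of glucose-6-phosphatase, splits inside the endoplasmic reticulum. Khk, ketohexokinase, is the entry step of fructose breakdown, and Miox, myo-inositol oxygenase, opens the inositol ring to glucuronate. The tubule runs from the convoluted S1 segment through S2 to the straight S3 segment.

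The 5 genes are protein coding and lie on different chromosomes. In GRCm38, the build of the mm10 genome used for alignment, Pck1 (ENSMUSG00000027513) lies at chr2:173153048-173159273, Khk (ENSMUSG00000029162) at chr5:30921431-30931248, G6pc (ENSMUSG00000078650) at chr11:101367561-101377903 and Miox (ENSMUSG00000022613) at chr15:89334398-89337015, all on the plus strand. Fbp1 (ENSMUSG00000069805) lies at chr13:62864753-62888282 on the minus strand. Because Pck1 is known for its control by cyclic AMP, the members' RefSeq promoter windows (GRCm38.p6, from 250 bases before the start to 50 after it) were searched on both strands for the cyclic AMP response element. Its palindrome TGACGTCA was in none of the 5 windows and in 1.79% of 32851 windows. The variant TTACGTCA was found in the window of Pck1 alone among the members and in 0.499% of all windows. The stretch that holds it is shown on the plus strand with the matched letters in capitals. A match is a description of the window and not evidence of binding.
Pck1, chr2:173152940-173153027: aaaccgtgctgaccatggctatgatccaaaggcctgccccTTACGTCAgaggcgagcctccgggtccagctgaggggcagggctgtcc

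The kidney libraries held 69691783 to 116998401 UMIs (unique molecular identifiers, counts of captured RNA molecules) in 8233 to 13719 cells. Cells with 200 to 3000 genes and at most 50% mitochondrial UMIs were kept. This left 5886 control cells, 8390 from the 15 min interval and 9936 from the 60 min interval. The cells over 3000 genes, left out here, held a large part of the members' UMIs. For Pck1 it was 40629 of 63378 in the control, 65087 of 122299 at 15 min and 66902 of 89751 at 60 min. For Khk it was 34523 of 58361, 46620 of 105893 and 41598 of 61931 in the same order. Cells were placed in classes by marker genes that exclude the members, and the proximal tubule share of kept cells was 49.2% (control), 85.3% (15 min) and 29.2% (60 min). Their median mitochondrial share was 11.5, 21.7 and 16.1% in the same order, and Kap, an androgen-regulated kidney gene, took 4.44, 7.16 and 3.72% of their UMIs. S1-, S2- and S3-gated cells numbered 625, 452 and 363 in the control, 1953, 950 and 921 at 15 min, and 1030, 286 and 378 at 60 min. Genes not used for gating followed the labels, since Gpx3 was highest in S1 (11182 to 14018 CPM, the UMIs of a gene per 1000000 UMIs of the class) and Kap and Napsa were highest in S3 in each library. Pairs of libraries shared 53, 93 and 211 cell barcodes, and cells with a shared barcode were 0.760, 0.964 and 3.45% of the proximal tubule cells. Leaving them out moved the median ratio of the members at most from 0.612 to 0.608.

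The members were almost entirely proximal tubule transcripts. Of their UMIs in kept cells, 93.5 to 96.0% lay in proximal tubule-gated cells in the control, 98.9 to 99.0% at 15 min and 89.7 to 93.7% at 60 min, although those cells held 56.3, 91.3 and 36.7% of all kept UMIs. In proximal tubule cells Pck1 stood at 1111 CPM (interval 1096 to 1126) in the control, 998 CPM (990 to 1006) at 15 min and 1062 CPM (1048 to 1077) at 60 min. Fbp1 stood at 1560, 1412 and 1444 CPM, Khk at 1163, 1034 and 924 CPM, and Miox at 4650, 3855 and 4292 CPM. G6pc ran the other way, with 186 CPM (180 to 192) in the control, 228 CPM (224 to 232) at 15 min and 261 CPM (254 to 268) at 60 min. The control was thus the highest of the 3 libraries for 4 members and the lowest for G6pc. A level of one gene is not set against that of another here, because 3' UMI counts are not levels per length.

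Along the proximal tubule the 5 genes followed different patterns. G6pc was lower in S2 than in S1, and lower again in S3, in each library. It stood at 326, 427 and 409 CPM in S1, at 155, 183 and 194 CPM in S2, and at 103, 96.1 and 122 CPM in S3 in the control, 15 min and 60 min libraries, so that neither pair of neighbouring segments overlapped. Its mean in S1 was 3.62 times that in S3, and the ratio within a library was 3.16 (interval 2.77 to 3.61) in the control, 4.44 (4.12 to 4.80) at 15 min and 3.36 (3.00 to 3.77) at 60 min.

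Miox had overlapping levels in S1 and S2 and a lower one in S3. Its values were 5425, 4805 and 4639 CPM in S1 and 5356, 4569 and 5521 CPM in S2, against 2371, 2109 and 1852 CPM in S3. The S1 to S3 ratio was 2.29 (2.23 to 2.35), 2.28 (2.24 to 2.32) and 2.50 (2.43 to 2.58). Miox RNA was therefore lower in S3-gated cells in 3 of 3 libraries, by an amount well outside counting error.

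Khk had the opposite slope. Ketohexokinase RNA was lowest in S1, at 833, 757 and 699 CPM, and higher in S2, at 1347, 1186 and 1123 CPM, and in S3, at 1285, 1138 and 1096 CPM. S2 and S3 overlapped and both lay above every S1 value. The S1 to S3 ratio was 0.648 (0.618 to 0.679), 0.665 (0.646 to 0.684) and 0.638 (0.610 to 0.668), and the ratio of the means was 0.650.

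The cytosolic enzymes Pck1 and Fbp1 varied least along the tubule. Pck1 reached 1171, 1049 and 1096 CPM in S1, 1222, 1125 and 1224 CPM in S2, and 964, 818 and 1008 CPM in S3. Fbp1 reached 1731, 1605 and 1497 CPM in S1, 1635, 1430 and 1557 CPM in S2, and 1272, 1221 and 1179 CPM in S3. For both genes S1 and S2 overlapped and S3 lay below them, at S1 to S3 ratios of the means of 1.19 for Pck1 and 1.32 for Fbp1. When mitochondrial and Kap UMIs were left out of the totals, those ratios were 1.07 and 1.18. For Pck1 the S1 to S3 ratio was then 1.13 (1.07 to 1.18) in the control, 1.14 (1.11 to 1.17) at 15 min and 0.956 (0.916 to 0.999) at 60 min, so that it turned in 1 library, whereas S2 to S3 stayed above 1 at 1.16 (1.10 to 1.22), 1.27 (1.23 to 1.31) and 1.08 (1.02 to 1.14). Kap took 82524 to 122511 CPM in S3 and 2400 to 3862 CPM in S1.

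In all, 3 members passed 1.5-fold between S1 and S3 without overlap of the libraries: 2 higher in S1 (G6pc and Miox) and 1 higher in S3 (Khk). Over all 6152 genes with a mean of at least 10 CPM, 21.1% were higher in S1 by this rule (1297 genes) and 10.8% were higher in S3 (665 genes), and the median S1 to S3 ratio was 1.17. Without mitochondrial and Kap UMIs the split was 1068 against 903 genes of 6966, and the same count of 3 members passed.

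**Figure D1:**
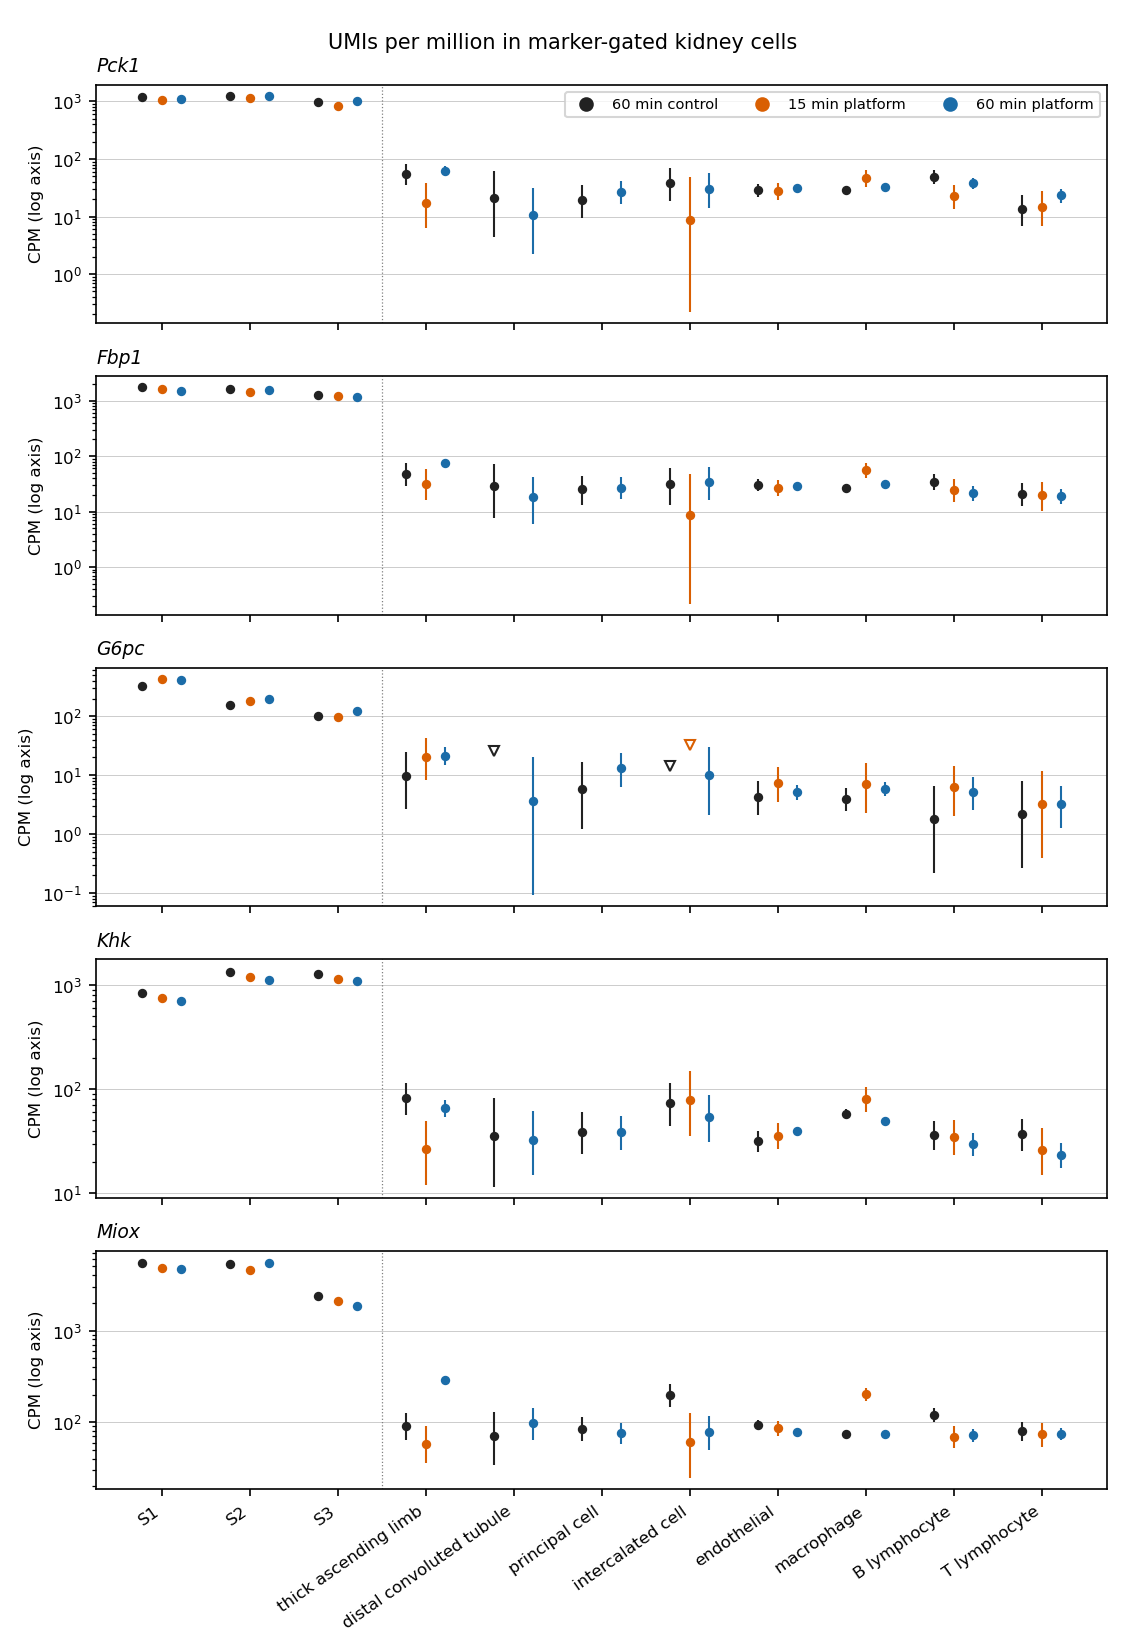
CPM (log axis) of each member in marker-gated classes of the 3 kidney libraries, with 1 point per library and exact 95% counting intervals (open triangles mark the upper limit where the count was 0; classes with under 20 cells in a library are left out, as are stromal cells, which reached 20 in 1 library). The 3 proximal tubule segments to the left of the dotted line stand above each other class in every panel, and G6pc steps down from S1 (326 to 427 CPM) to S3 (96.1 to 122 CPM).

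The other genes of these pathways were read from lists drawn up by pathway, with certain genes left out and with earlier results of these data known. Their ratios and counts keep mitochondrial and Kap UMIs in the totals and were not repeated without them. Of 14 tested genes of gluconeogenesis and its transport, 5 were higher in S1 and 1 in S3 by the same rule, with a median ratio of 1.35. Slc2a2, the glucose carrier of the basolateral membrane, stood at 122, 209 and 181 CPM in S1 and 32.1, 38.4 and 38.1 CPM in S3. Fbp2, the other fructose bisphosphatase, showed a ratio of 5.43 and Got1, the cytosolic aspartate aminotransferase, of 2.54. G6pc3, the widely expressed relative of G6pc, ran against G6pc with 17.8 CPM in S1 and 36.2 CPM in S3, both means over the libraries, and a ratio of 0.493.

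Of 7 tested genes of fructose and polyol metabolism, 1 was higher in S1 (Slc2a5, a fructose carrier, at 1.71-fold) and 1 was higher in S3, at a median ratio of 1.00. The latter was Akr1b3, aldose reductase, which makes sorbitol from glucose, with a mean of 18.4 CPM in S1 and 81.3 CPM in S3. Of 6 tested genes on the myo-inositol and glucuronate-xylulose list, 4 were higher in S1 and 0 in S3, at a median ratio of 1.58. Higher were Akr1a1 (1.65), Cryl1 (1.96), Dcxr (1.91) and Impa1 (1.5). The first 3 act downstream of Miox, which had a ratio of 2.35.

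Among tested genes of the pathway lists, Oat and Prodh2 of the glutamine list, which supplies carbon and ammonia, had the steepest slopes. Oat, ornithine aminotransferase, averaged 255 CPM in S1 and 6.01 CPM in S3, and Prodh2, hydroxyproline dehydrogenase, averaged 124 and 5.93 CPM. In all, 5 of 5 tested genes of that list were higher in S1, at a median ratio of 2.07. The others were Glud1 (2.07), Gpt2 (1.64) and Aldh4a1 (1.63). Genes of the list below 10 CPM were not tested. Of these, Slc38a3 (0.138 CPM in S1 and 7.16 CPM in S3) and Gpt (4.14 and 13.8 CPM) were higher in S3, and Gls2 was almost absent. Of 8 tested glycolytic genes, 1 passed the rule (Ldhb, 1.54, higher in S1), and their median ratio of 1.34 was about that of the gluconeogenesis list. Among 11 tested regulators, 5 were higher in S1, including the coactivator Ppargc1a (37.5 against 8.40 CPM) and the glucocorticoid receptor Nr3c1 (2.17-fold), and 2 were higher in S3, namely Cebpb and Irs2, with a median ratio of 1.63.

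**Figure D2:**
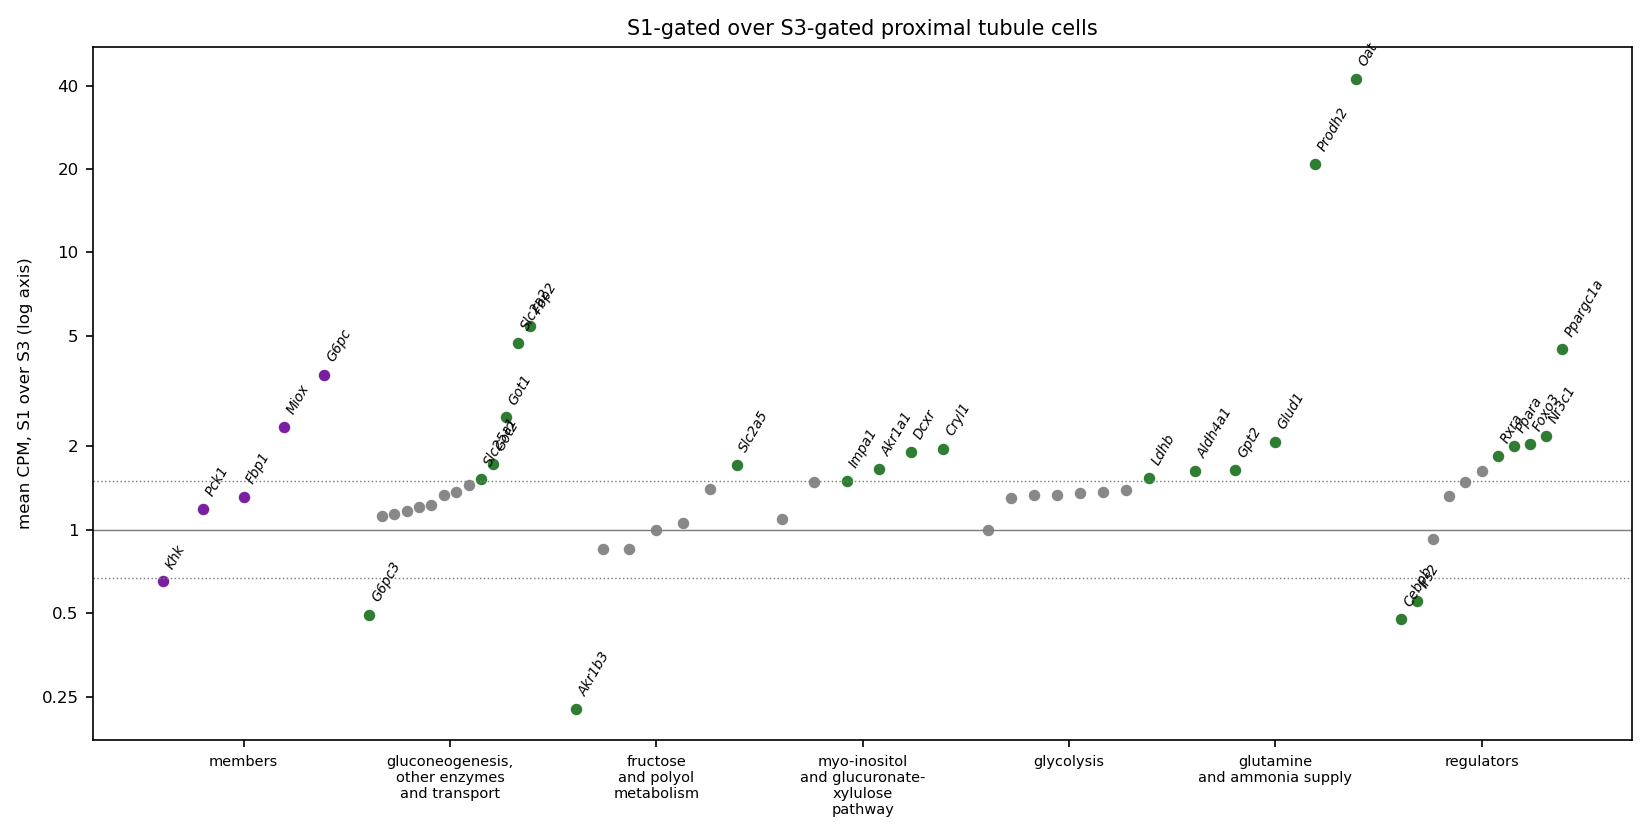
Ratio of the mean CPM over the 3 libraries in S1-gated cells to that in S3-gated cells (log axis) for the 5 members and for each tested gene of 6 pathway lists, 1 point per gene. Purple points are members, green points passed 1.5-fold (dotted lines) without overlap of the libraries, grey points did not. G6pc (3.62) and Miox (2.35) lie above the upper line and Khk (0.650) below the lower one, while Pck1 and Fbp1 lie between them.

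Between libraries, a comparison over all kept cells and one within the proximal tubule gave different pictures. The first asks how much of each transcript a suspension held. Over kept cells Pck1 stood at 665 CPM in the control, 920 CPM at 15 min and 426 CPM at 60 min, which gave ratios to the control of 1.38 (1.36 to 1.40) and 0.640 (0.628 to 0.652). The 5 ratios ranged from 1.29 (Miox) to 1.93 (G6pc) at 15 min, with a median of 1.38, and from 0.541 (Khk) to 0.946 (G6pc) at 60 min, with a median of 0.612. These values moved with the share of proximal tubule cells given above. A sum over all kept cells cannot by itself tell fewer cells of a type from less RNA per cell. The values within proximal tubule-gated cells are given in the next paragraph. With only the lower limit of 200 genes applied, the medians were 1.13 and 0.810.

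Within proximal tubule-gated cells, no member passed 1.5-fold in either direction in either platform library. At 15 min the ratios to the control were 0.898 (0.884 to 0.912) for Pck1, 0.905 (0.893 to 0.917) for Fbp1, 0.889 (0.876 to 0.903) for Khk, 0.829 (0.823 to 0.836) for Miox and 1.22 (1.18 to 1.27) for G6pc. Over the 6064 genes with a mean of at least 10 CPM, 3.88% were higher and 3.02% lower by at least 1.5-fold, and the median ratio of all genes was 0.849. The 4 lower members thus sat close to the centre of all genes. With mitochondrial UMIs out of the totals, Pck1 stood at 0.992 (0.977 to 1.01), Fbp1 at 1.000 (0.987 to 1.01), Khk at 0.983 (0.968 to 0.998), Miox at 0.916 (0.909 to 0.923) and G6pc at 1.35 (1.30 to 1.40).

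At 60 min the ratios were 0.956 (0.938 to 0.975) for Pck1, 0.926 (0.911 to 0.941) for Fbp1, 0.795 (0.779 to 0.811) for Khk, 0.923 (0.914 to 0.932) for Miox and 1.40 (1.34 to 1.46) for G6pc. Here 5.90% of the genes were higher and 0.643% lower by at least 1.5-fold, around a median of 0.998. Khk was the lowest of the 5 in this comparison. It was below the control in each segment, at 0.839 in S1, 0.833 in S2 and 0.852 in S3, and in each of the 10 alternatives over the whole proximal tubule (0.750 to 0.847).

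G6pc was the only member above 1 in both platform libraries. In S1 its ratio was 1.31 (1.24 to 1.39) at 15 min and 1.25 (1.18 to 1.34) at 60 min, and in S2 it was 1.18 (1.06 to 1.31) and 1.26 (1.09 to 1.44). In S3 the 15 min ratio was 0.930 (0.808 to 1.07) and the 60 min ratio 1.18 (1.00 to 1.39), so a difference there was not detectable at 15 min. S1 cells, where G6pc is highest, were a larger part of the 60 min proximal tubule cells, and with the segment mix of the control its ratio was 1.19 at 15 min and 1.23 at 60 min. In cells with a mitochondrial share of 10 to 20% it was 1.05 and 1.30. Per 100 Miox UMIs, a ratio that needs no denominator of total RNA, there were 4.0 G6pc UMIs (3.87 to 4.14) in the control, 5.90 (5.80 to 6.01) at 15 min and 6.08 (5.90 to 6.25) at 60 min. Miox was itself lower than in the control, at 0.829 and 0.923 by CPM, which enlarges this rise.

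Of 51 tested pathway genes, 6 were higher (11.8%, against 3.88% of all genes) and 2 lower (3.92%, against 3.02%) by 1.5-fold at 15 min in proximal tubule cells. Higher were G6pc3 (1.61), Slc37a4 (1.63), the carrier that brings glucose 6-phosphate to G6pc, Slc2a2 (1.61), Slc2a5 (1.67), the sodium and inositol cotransporter Slc5a11 (1.62) and the insulin receptor Insr (1.57). Lower were the transcription factors Cebpb (0.627) and Mlxipl (0.660). At 60 min 5 were higher (9.8%, against 5.90% of all genes) and 0 lower: Slc2a2 (1.66), Prodh2 (1.58), Ppargc1a (1.65), Mlxipl (1.61) and Insr (1.76).

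**Figure D3:**
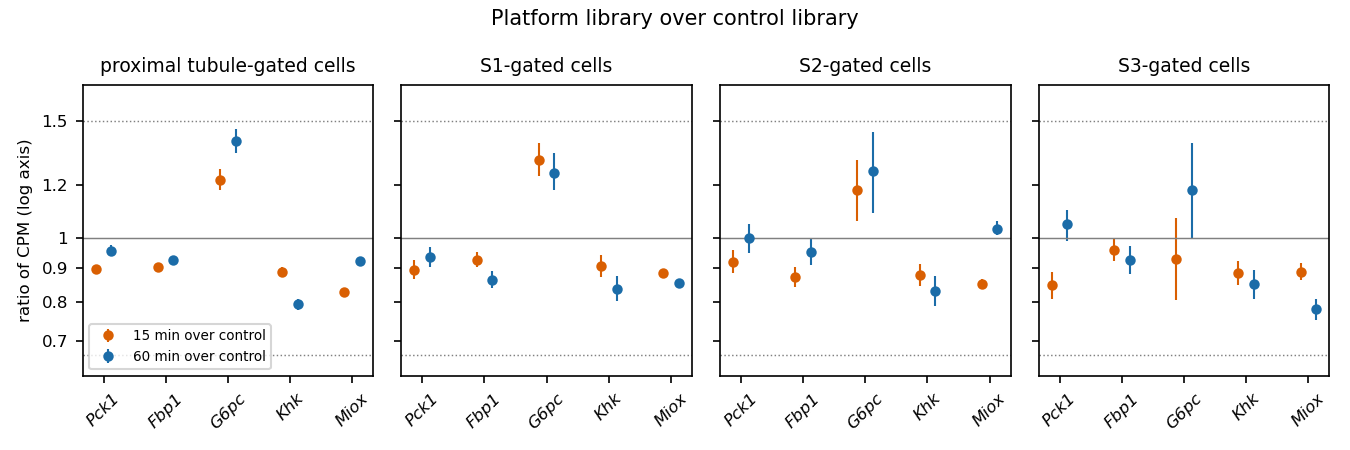
Ratio of a member's CPM in a platform library to that in the control library (log axis, exact 95% counting intervals) in all proximal tubule-gated cells and in S1-, S2- and S3-gated cells, at 15 min (orange) and 60 min (blue). Dotted lines mark 1.5-fold either way, which no point reaches. G6pc lies above 1 in 7 of 8 comparisons, and Khk lies below 1 in each.

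Within the proximal tubule, G6pc was higher in cells with a larger mitochondrial share, and the other members were lower there. The share of mitochondrial UMIs is commonly read as a sign of the state of a cell. To keep it out of the denominator, CPM were taken over non-mitochondrial UMIs here. In the control G6pc stood at 123 CPM in cells under 10%, 237 CPM from 10 to 20%, 314 CPM from 20 to 30% and 516 CPM (478 to 556) from 30 to 50%. The same steps gave 204, 251, 282 and 474 CPM at 15 min and 190, 307, 420 and 558 CPM at 60 min. Fbp1 went from 2017 CPM in the lowest to 1521 CPM in the highest bin of the control, from 2337 to 1729 CPM at 15 min and from 2037 to 1395 CPM at 60 min. In the lowest bin S1 cells were 15.5, 27.9 and 29.4% of the cells, and in the highest 39.7, 49.6 and 47.1%, so segment and mitochondrial share moved together.

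The split was therefore repeated inside each segment, with cells of 20% and over set against cells under 20%. G6pc was higher in the former in 9 of 9 combinations of segment and library, by 1.09 to 2.42 times. In S1 it was 2.20 times higher (1.98 to 2.44) in the control, 1.51 times (1.43 to 1.59) at 15 min and 1.79 times (1.66 to 1.92) at 60 min. In S3 at 15 min the ratio of 1.09 (0.937 to 1.26) did not clear counting error. Pck1, Fbp1, Khk and Miox were lower in 36 of 36 combinations, at 0.709 to 0.985. Some of these did not clear counting error: Khk in S1 at 15 min (0.938 to 1.01), and at 60 min Khk (0.885 to 1.09) and Pck1 (0.851 to 1.05) in S2 and Pck1 in S3 (0.861 to 1.01). Kap stayed in the totals, and its share was larger in cells of 20% and over in each segment and library. The split was not repeated without it. Over the 5763 genes tested in each segment, 13.1% lay above 1 in all 9 sums and 19.2% below 1 in all 9. In S1, 8.95% of 7107 genes were at least 1.5 times higher in each of the 3 libraries and 0.0844% at least 1.5 times lower, with medians of 0.985, 0.890 and 0.959. The S1 ratios of the 4 lower members lay below the median of their library in the control (0.837 to 0.853) and at 60 min (0.765 to 0.883). At 15 min they lay on both sides of it (0.836 to 0.975). G6pc lay above it in each library. The split and its comparison were chosen after the values had been seen.

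By the same rule in S1, 5 of 54 tested pathway genes were higher (9.26%, about the 8.95% of all genes) and 0 were lower. They were G6pc3 (1.79, 2.19 and 1.77 in the control, 15 min and 60 min libraries), Slc37a4 (2.12, 2.06 and 1.89), Slc2a2 (2.47, 1.71 and 2.02), Slc2a5 (2.60, 2.52 and 1.76) and Slc5a11 (2.51, 1.85 and 1.89). The first of these is a relative of G6pc and the others are carriers of glucose 6-phosphate, glucose, fructose and inositol. Pcx, the mitochondrial pyruvate carboxylase, lay above 1 in each library (1.98, 1.45 and 1.37) without passing. The mitochondrial carriers Slc25a1 (1.13, 1.14 and 0.952), Slc25a10 (1.01, 0.950 and 1.05) and Slc25a11 (0.802, 0.916 and 0.774) did not pass, nor did the sorbitol dehydrogenase Sord (0.846, 0.870 and 0.770). The part of the mitochondrial share in the differences between libraries was not tested beyond the values given.

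**Figure D4:**
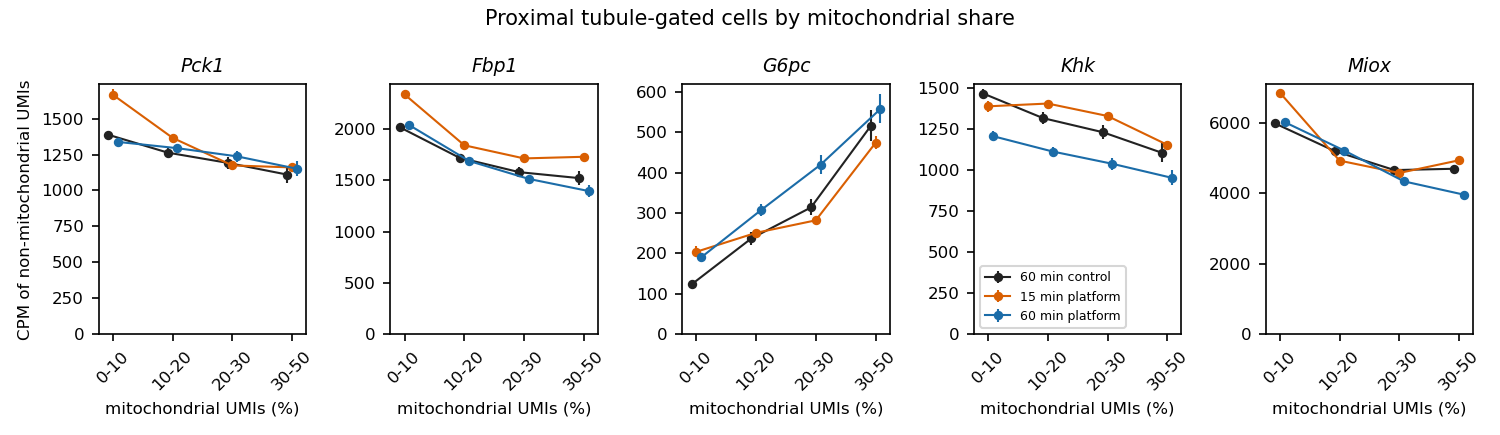
CPM over non-mitochondrial UMIs of each member in proximal tubule-gated cells, in 4 bins of the share of mitochondrial UMIs (percent), with 1 line per library and exact 95% counting intervals. G6pc climbs in each library (123 to 516 CPM in the control), whereas the lines of the other 4 members end lower than they start.

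From cell to cell the members also differed in how evenly they were spread. With each cell thinned to 3000 UMIs, Pck1 in S1 had a mean of 3.41, 3.08 and 3.29 UMIs and a variance of 3.82, 3.54 and 4.24 times that mean. In those cells 19.2, 21.0 and 19.6% had no Pck1 UMI, where counting at an even level would leave 3.30, 4.58 and 3.74%. Fbp1 had higher means (5.15, 4.69 and 4.43) yet a variance of only 1.99, 1.80 and 2.27 times the mean. Khk had the lowest ratio of variance to mean, at 1.38, 1.30 and 1.36 in S1. It had no UMI in 12.3, 14.0 and 17.1% of those cells, against 8.98, 10.8 and 11.8% from counting. For G6pc the variance was 2.21, 1.79 and 2.19 times a mean of 1.06, 1.32 and 1.25 UMIs. Miox had the largest variance over its mean, at 4.52, 4.36 and 5.45 times means of 15.8, 14.2 and 13.6 UMIs. At a given relative spread this ratio grows with the mean. It therefore cannot rank genes of unlike means by evenness, and Miox is not read here as the least even. For Pck1 the ratio was smaller in S3 of the control and of 15 min (2.70 and 1.93) and as large at 60 min (4.32).

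At a common depth of 1000 UMIs per cell, Miox was found in 92.9, 91.9 and 88.8% of proximal tubule cells, Fbp1 in 73.1, 72.2 and 71.0%, Khk in 64.9, 63.1 and 54.8%, Pck1 in 57.7, 55.3 and 55.5% and G6pc in 15.6, 19.3 and 21.7%. At full depth, where the median was 5940, 7238 and 6254 UMIs, G6pc was found in 48.7, 63.2 and 59.6%. All 5 members were found together in 44.0, 58.7 and 51.0% of the cells at full depth and in 4.45, 5.08 and 3.68% after thinning. In endothelial cells, thinning left Miox in 11.3, 8.19 and 8.06%, Khk in 3.14, 4.80 and 3.73% and G6pc in 0.923, 0.847 and 0.643% of cells. Their median depth before thinning was 4117, 3746 and 3797 UMIs.

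Outside the proximal tubule the members were low. The highest mean of any other class was 147 CPM, for Miox in the thick ascending limb, and from there on neighbours in the order of classes overlapped for each member. As a percent of the proximal tubule level in the same library, the classes with at least 20 cells ranged from 0.868 to 5.86% for Pck1, from 0.614 to 5.27% for Fbp1, from 0 to 8.99% for G6pc, from 1.85 to 7.77% for Khk and from 0.799 to 6.75% for Miox. Kap, also a proximal tubule gene, ranged from 0.896 to 5.18% when read the same way. Free RNA in the droplets was not measured, and its part in these levels was not tested. The thick ascending limb of the 60 min library lay above, with 8.27% (5.78 to 11.5) for G6pc and 6.75% (6.16 to 7.39) for Miox against 2.86% (2.73 to 3.00) for Kap. Its 484 Miox UMIs lay in 96 of 367 cells (26.2%), whereas 750 lay in 610 endothelial cells (25.7%), so part of the class carried the sum. For Miox the control's thick ascending limb went the other way, at 1.96% against 5.18% for Kap. At 15 min the intervals of Miox (0.926 to 2.34%) and Kap (0.975 to 1.24%) overlapped. G6pc in that class stood at 8.99% (3.61 to 18.5) at 15 min, from 7 UMIs, above the interval of Kap. In the control it was 5.17% (1.41 to 13.2), from 4 UMIs, about the level of Kap. For G6pc a count of 0 in the control's 49 intercalated cells still allowed up to 7.66% of the proximal tubule level.

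Khk stood higher outside the proximal tubule than Kap did. Its percent of the proximal tubule level was above that of Kap in 23 of 23 sums of class and library, with intervals apart in 17, while for Pck1, Fbp1, G6pc and Miox the intervals lay apart above Kap in 8, 1, 2 and 6 of 23. Macrophage-gated cells held 4.93% (4.40 to 5.51) of the proximal tubule level of Khk in the control, against 1.61% (1.46 to 1.78) for Miox and 1.64% (1.59 to 1.69) for Kap. At 60 min they held 5.34% (4.86 to 5.86) of Khk against 1.74% (1.61 to 1.87) of Miox. At 15 min, with 130 macrophages, the intervals of 7.77% (5.88 to 10.1) for Khk and 5.26% (4.44 to 6.20) for Miox overlapped. Per 100 Miox UMIs, Khk counted 76.4 (65.9 to 88.6) in control macrophages and 25 (24.6 to 25.4) in the proximal tubule, and 66.2 (58.8 to 74.6) against 21.5 (21.2 to 21.9) at 60 min. The same ratio in endothelial cells was 33.6 (25.4 to 44.0) in the control and 49.7 (43.8 to 56.4) at 60 min. At 1000 UMIs per cell, 5.91% (4.39 to 7.76), 8.0% (3.90 to 14.2) and 4.16% (3.20 to 5.30) of macrophages held a Khk UMI, intervals that overlapped those of endothelial cells in each library.

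The tumor libraries gave a background without kidney RNA. G6pc was not detected in 5736, 5802 and 6024 kept cells, with an upper limit of 0.0728 CPM or less. Pck1 gave 1, 2 and 1 UMIs and Miox 1, 0 and 0. Fbp1 gave 30, 57 and 22 UMIs, or 0.592, 1.04 and 0.379 CPM. Khk was present throughout, with 623, 621 and 829 UMIs, 12.3 CPM (11.4 to 13.3) in the control, 11.3 CPM (10.5 to 12.3) at 15 min and 14.3 CPM (13.3 to 15.3) at 60 min, in 9.61, 9.60 and 11.9% of cells. Of the 5 genes, Khk alone was thus above 10 CPM in both tissues.

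Across 32 sums of class and library, with 13243 genes compared, the gene whose log2(CPM + 1) was most like that of Pck1 was Fbp1 (Pearson r 0.992), followed by Akr1c21 (0.987) and Acsm2 (0.981), one of the genes that gate the proximal tubule. Akr1c21 and Acsm2 also followed Pck1 for Fbp1 (0.991 and 0.987), and Akr1c21 (0.985), Fbp1 (0.984) and Pck1 (0.977) were nearest to Miox. G6pc was nearest to the potassium channel gene Kcnj15 (0.959), the amino acid carrier subunit Slc7a9 (0.943) and Hao2 (0.943), and Khk to Pecr (0.983), Ttc36 (0.983) and Guca2b (0.980). No member was among the 3 nearest of G6pc or Khk. These values rest largely on the step between proximal tubule and other classes, which share libraries and free RNA, and are given as a description.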

How the data were processed

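The authors deposited UMI counts per gene and cell, made with Cell Ranger 3.1.0 (submitters' processing notes) against mm10 and aggregated over the 3 libraries of a tissue with depth normalization, which thins reads of the deeper libraries and so makes counts comparable but lowers them. Libraries were identified by the barcode suffix and the order of the aggregation table, whose names match the sample labels. No mapped column was left unused. Kidney cells with 200 to 3000 genes and at most 50% mitochondrial UMIs were kept, and tumor cells with 200 to 4000 genes and at most 25%. No doublet caller was run. A cell entered a class with at least 2 marker UMIs from at least 2 markers and 3 times those of each other class, and cells meeting several classes were left out. Proximal tubule cells entered S1, S2 or S3 when the scaled marker sum was 2 times that of each other segment.

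UMIs were summed per library and class and divided by the class total (CPM). Sums carry exact Poisson, shares exact Clopper-Pearson and ratios exact conditional binomial intervals at 95%, which cover counting error only. With 1 library per condition no test was made, and a gene was called past 1.5-fold among those with a mean of at least 10 CPM. Likeness used log2(CPM + 1). Thinned values used 1000 or, for variance, 3000 UMIs per cell. Named were the members, the 3 genes most like each, and pathway genes past 1.5-fold between libraries. Other pathway genes were named for their segment or mitochondrial values after these were seen. Certain genes, and 1 promoter motif, are not reported here and were left out of the pathway lists, the motif search and the likeness comparison. The members and lists were chosen with earlier results of these data known. Scripts were tested on simulated data and used Python 3.11.15, NumPy 2.4.6, SciPy 1.17.1, pandas 2.3.3 and matplotlib 3.10.9. The alternatives changed the filters, gates, denominators, depth, segment mix and thresholds. Promoter windows came from RefSeq (GRCm38.p6) and gene coordinates from GENCODE M21.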

Additional observations from a re-analysis of the deposited data

Results flagged for a closer look

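In the comparison of the 60 min platform library with the control, the ratio of Miox lay on opposite sides of 1 in different segments. It was 0.855 (0.841 to 0.869) in S1, 1.03 (1.01 to 1.06) in S2 and 0.781 (0.753 to 0.811) in S3. Each condition had 1 library, so the difference between segments was not tested.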

How the results depend on the processing

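The alternatives were run for the members and the counts over all genes, not for single pathway genes. No member past 1.5-fold changed direction under them, but the 15 min median in proximal tubule cells, which was not past it, crossed 1 in 2 of them. Leaving mitochondrial and Kap UMIs out, and leaving out cells with shared barcodes, were chosen after seeing the data. Over kept cells the median member ratio at 15 min (1.38) became 1.13 without upper cell filters, 1.55 without mitochondrial UMIs and 1.64 without mitochondrial and Kap UMIs. The one at 60 min (0.612) became 0.810 without upper filters, 0.623 without mitochondrial UMIs, 0.547 as a mean over cells and 0.534 after thinning. In proximal tubule cells the 15 min median (0.898) became 0.846 without upper filters, 0.992 without mitochondrial UMIs, 0.883 as a mean over cells, 0.882 after thinning, 1.04 without mitochondrial and Kap UMIs, 0.881 in S2 and 1.06 at a mitochondrial share of 10 to 20%. The 60 min median (0.926) became 0.982, 0.956 and 0.949 without upper filters, mitochondrial UMIs, or mitochondrial and Kap UMIs, and 0.865 in S1, 1.00 in S2 and 1.00 at a share of 10 to 20%. The cause was not tested. G6pc stayed above 1 in 10 of 10 alternatives at 15 min (1.05 to 1.42) and at 60 min (1.23 to 1.55), and passed 1.5-fold in 1, thinning at 60 min. The count of 3 members past 1.5-fold between S1 and S3 held in 8 of 8. At 15 min 235 genes were higher and 183 lower, against 118 and 46 with a minimum of 50 CPM and 5 and 54 past 2-fold. At 60 min 358 were higher and 39 lower, against 58 and 10, and 105 and 2. No paired analysis was possible because each condition had 1 library and no test was made. Depth limits G6pc outside the proximal tubule most, where most classes held 10 or fewer UMIs in a library.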
